A study of Mus musculus with 24 samples.

Results

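The RNA libraries described here are those of dermal papilla (DP) cells taken at postnatal day 60 (P60), the telogen of the second hair cycle, from 3 control and 3 dM1/2 mutant mice. They were selected by the age and genotype in the sample labels, and they are 6 of the 24 libraries of the series, which also holds P20 (telogen of the first cycle), P24 and P28 (early and mid-anagen of the second cycle), with 3 control and 3 dM1/2 libraries at each age. The study asked what Hdac1 and Hdac2, a pair of histone deacetylases, do in the DP through the hair cycle, and the P60 comparison asks which transcripts differ between mutant and control once the follicle rests again. In dM1/2 mice both alleles of Hdac1 and of Hdac2 are floxed and recombined by Corin-Cre, which is active in the DP. Control mice also carry Corin-Cre, with at least 1 floxed allele of Hdac1 or Hdac2, and some of the control genotypes that the study lists are homozygous for 1 of the pair. The labels do not say which control genotype each library has. Cells were marked with YFP and passed through 2 rounds of sorting before RNA was taken, so the libraries hold YFP-positive cells of the whole skin and not a dissected papilla.

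The DP is a mesenchymal cluster at the lower end of each hair follicle. It sends Wnt, R-spondin, BMP and FGF signals to the epithelial stem cells and so sets when the follicle rests (telogen) and when it grows (anagen). Hdac1 and Hdac2 are near-identical class I enzymes that remove acetyl groups from histones as the catalytic core of the Sin3, NuRD, CoREST and MiDAC complexes, and are mostly known as corepressors.

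Between 8171944 and 9724000 reads per library were counted on genes at P60, and 1 read was worth 2.10 to 2.52 of the normalized reads in which all levels below are given (read counts over a size factor that scales each library). Every fold change is a difference of log2(normalized reads + 1), dM1/2 minus control. The library labelled dM1/2 1 stood apart. In it 1326 genes were more than 1 log2 unit from the mean of their group, against 221 to 646 in the other 5 libraries. The summed reads of adipocyte markers were 15334 there and 2029 to 4873 in the others, those of immune cell markers 1325 and 424 to 584, those of endothelial markers 6377 and 1457 to 3306, and those of Schwann cell markers 9500.0 and 2956 to 4721. Smooth muscle and dermal sheath markers summed to 7233 in dM1/2 1 and to 14015 to 16962 in the other 5. DP signature genes summed to 82084 to 146422 over the 6 libraries, with the groups overlapping, and dermal fibroblast markers, mostly Col1a1, to 1147950 to 1711710. Keratinocyte markers were low in all 6, at 584 to 1104. A mean of 10 normalized reads was reached by 36 of 36 DP signature genes, 10 of 15 keratinocyte, 7 of 8 adipocyte, 8 of 9 endothelial, 7 of 8 Schwann cell and 5 of 14 immune cell markers, with the pan-leukocyte gene Ptprc and the Schwann cell factor Sox10 under it. Some of the results that move when dM1/2 1 is left out are given both ways. A value given once below is not thereby stable to leaving this library out. The part that other cell types in dM1/2 1 have in the results was not tested.

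**Figure D1:**
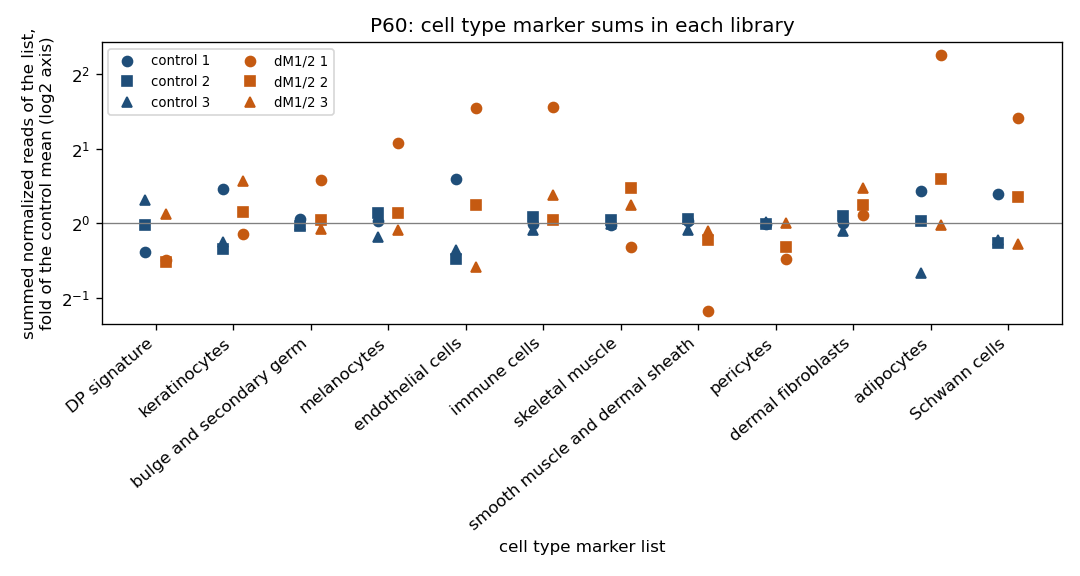
Summed normalized reads of each cell type marker list in each P60 library, as a fold of the control mean (log2 axis); colour gives the group and the symbol the library number. The circle of dM1/2 1 lies above all other libraries for adipocyte, immune, endothelial, Schwann cell and melanocyte markers and below them for smooth muscle and dermal sheath markers.

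The targeted genes were read first. Hdac1 was at 506, 359.9 and 376 normalized reads in the controls and at 371, 347 and 318 in the libraries labelled dM1/2. The groups overlapped, and the fold change was -0.25 (95% interval -0.68 to 0.19, limma adjusted p = 0.986). Hdac2 was at 775, 727 and 609 in the controls and at 699, 719 and 809.6 in dM1/2, a fold change of 0.08 (-0.28 to 0.44). Neither transcript separated the groups at P60. At P24 Hdac1 fell by 2.01 on the log2 scale (limma adjusted p = 0.00167). Its effect at P60 differed from that at P24 by 1.76 (limma over 12 libraries, adjusted p = 0.0146). Hdac1 was not called at P28 (-0.58, limma adjusted p = 0.454) or P20 (-0.72, limma adjusted p = 0.122), and its P60 effect differed by the test from neither. Hdac2 was called at no age, with effects of -0.01 at P20, 0.27 at P24 and 0.16 at P28. The counts cover whole genes, and the exons that recombination removes were not counted separately, so these values check the labels only in part.

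Among the other deacetylases, Hdac6, a cytoplasmic tubulin deacetylase, was at 260.3, 303 and 269.8 in the controls and at 313, 362 and 329 in dM1/2, the only member of the family whose groups did not overlap, and its fold change of 0.27 had an interval from -0.12 to 0.66. Hdac3, the class I enzyme of the NCoR complex, had a fold change of 0.13 (-0.20 to 0.46). Hdac9, a class IIa member, was low and uneven, at 56.7, 71.5 and 50.7 against 10.1, 57.8 and 40.008 (fold change -1.005, -2.40 to 0.40). The fold changes of Hdac4, Hdac5, Hdac7, Hdac8, Hdac10 and Hdac11 lay between -0.18 and 0.18. For 10 of the 11 deacetylases the 95% interval was within 1 log2 unit of no change. Of 34 subunits of the Hdac1/2 complexes that were tested, 2 had groups that did not overlap, both higher (4.79% of all genes tested were higher without overlap and 4.08% lower), 32 had an interval within 1 log2 unit, and the list median was 0.03. Of 10 histone acetyltransferases, which add the marks that these enzymes remove, Kat2b alone had groups that did not overlap. It was at 957, 1082 and 1058 in the controls and at 2174, 1292 and 1186 in dM1/2 (fold change 0.53, and 0.26 without dM1/2 1).

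Across all genes few differences passed a test. Of the 14042 genes whose mean reached 10 normalized reads, 0 were called by limma at an adjusted p under 0.05 (0% called, smallest adjusted p 0.0845) and 0 by edgeR (0% called, smallest 0.0583). At an unadjusted p under 0.05, limma gave 525 genes (3.74%), 276 higher (1.97%) and 249 lower (1.77%), and edgeR 562. By chance alone 702 would be expected at that threshold, more than either test gave. DESeq2 on the same reads called 25 of the 13795 genes it gave an adjusted p (0.181%), 6 higher (0.0435%) and 19 lower (0.138%), and without dM1/2 1 it called 62, 33 higher and 29 lower. The 3 dM1/2 libraries were all above the controls for 672 genes (4.79%) and all below them for 573 (4.08%). Fold changes were positive for 7524 of the 14042 genes and negative for 6518, the split against which sign counts of lists below are to be read. The 95% interval lay within 1 log2 unit of no change for 8919 genes (63.5%), and it reached to either side of the estimate by 0.57 at the median. It lay wholly beyond 1 log2 unit for 24 genes. With 3 libraries against 3, an exact permutation test of a single gene cannot go below 0.1, and none is given. The labels call the libraries biological replicates.

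Rspo2 was among the 12 lower genes with the smallest p, which were chosen from genes without overlap between groups. This gene encodes an R-spondin, a secreted protein that keeps Wnt receptors at the cell surface. It was at 254, 222 and 242 normalized reads in the controls and at 83.3, 57.8 and 70.6 in dM1/2. The groups lay far apart and each was tight, with a fold change of -1.76 (-2.29 to -1.23, limma adjusted p = 0.416, DESeq2 adjusted p = 1.42e-05). Lgr6, an R-spondin receptor that was not among those 12 but was called by DESeq2, was at 1131, 1179.7 and 2068 in the controls and at 159, 375 and 569.5 in dM1/2 (-2.11, -3.15 to -1.08, DESeq2 adjusted p = 0.00588).

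The gene with the smallest p of all was Fut9, a fucosyltransferase that makes the Lewis X glycan. It was at 225, 276 and 293 in the controls and at 15.1, 17.6 and 32.9 in dM1/2, with means 12.1-fold apart. Every dM1/2 library was far below every control (-3.61, -4.40 to -2.81), and limma's adjusted p of 0.0845 became 0.0160 without dM1/2 1, 0.0264 without dM1/2 3 and 4.47e-14 in DESeq2. A pair of further glycan-building enzymes stood beside it. Mgat5b, which branches O-mannose glycans, was at 103, 114 and 406 in the controls and at 2.52, 10.1 and 14.1 in dM1/2 (-4.34, -5.98 to -2.70, DESeq2 adjusted p = 6.01e-06). The lowest of these values is a single read. St3gal5, the synthase of the ganglioside GM3, was at 351, 419 and 394 against 174, 199 and 200.04 (-1.02, -1.42 to -0.62, DESeq2 adjusted p = 0.00766).

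Gdf10, a TGF-beta family ligand also called BMP3b, was at 3392, 4171 and 3952 in the controls and at 2262, 1918 and 2095 in dM1/2 (-0.87, -1.21 to -0.53, DESeq2 adjusted p = 0.000828). Stc2, a secreted glycoprotein hormone, was at 2515, 3268 and 3343 against 644, 1212 and 1294 (-1.59, DESeq2 adjusted p = 0.000813). Dio2, the deiodinase that activates thyroid hormone inside cells, was at 323, 309.8 and 427 against 126, 108 and 169 (-1.40, DESeq2 adjusted p = 0.00313). None of these 3 genes had groups that overlapped. Dio3, the imprinted deiodinase that inactivates thyroid hormone, was also lower, at 44.1, 42.9 and 62.3 against 17.7, 10.1 and 9.41 (-1.95, limma adjusted p = 0.986). Grb14, an adaptor that restrains insulin receptor signalling, was at 139, 219 and 293 against 50.5, 45.3 and 70.6 (-1.91, DESeq2 adjusted p = 0.00177). Of the receptors, Tacr1, the substance P receptor, had a fold change of -2.27 and Adrb3, the beta-3 adrenergic receptor, one of -1.81 (DESeq2 adjusted p = 0.00138 and 0.0230).

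Of the remaining lower genes, Sez6l, a membrane protein of neurons, was at 577, 396 and 357 in the controls and at 27.8, 50.3 and 113 in dM1/2 (-2.98, -4.07 to -1.89, DESeq2 adjusted p = 6.01e-06). Cacng5, an auxiliary subunit of AMPA receptors, was at 81.9, 159.7 and 208 against 22.7, 42.7 and 25.9 (-2.21), and Gprin3, a G protein effector, at 212, 172 and 148 against 70.7, 65.4 and 56.5 (-1.44). Lrrtm1, a synaptic adhesion protein, was near 0 in dM1/2 1, at 5.05, and at 50.3 and 82.4 in the other two, against 298, 288 and 228 (-3.19, and -2.05 without dM1/2 1). The other genes that DESeq2 called lower and that are named here, Nfam1 (-2.47), Zcchc18 (-2.07), Eps8l2 (-2.70) and Sybu (-2.01), also had groups that did not overlap. Over the 12 lower genes chosen by p, dM1/2 1 held the lowest value of the mutants for 7, dM1/2 2 for 4 and dM1/2 3 for 1.

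**Figure D2:**
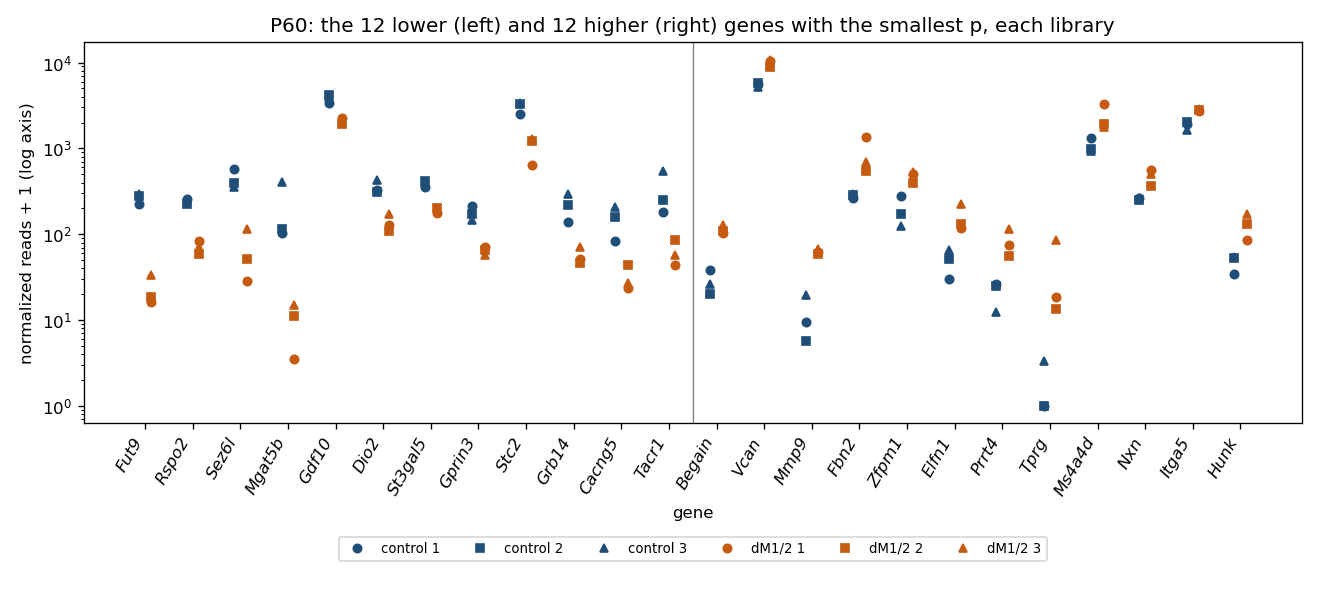
Normalized reads + 1 (log axis) of the 12 lower and 12 higher genes with the smallest limma p in each of the 6 P60 libraries; blue symbols are controls and orange symbols dM1/2. No gene shown has overlapping groups, which the choice of genes required, and Fut9 and Mgat5b are the furthest apart among the lower genes.

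Among the higher genes, Vcan, the hyaluronan-binding proteoglycan versican and a classical DP marker, was at 5659, 5710.4 and 5222 normalized reads in the controls and at 10482, 8778 and 10786 in dM1/2. It was the most abundant of the genes named by their p, its groups were tight and well apart, and its fold change was 0.85 (0.49 to 1.21, DESeq2 adjusted p = 0.000813). Fbn2, a microfibril protein, was at 267, 284 and 291 against 1356, 543 and 701 (1.52, and 1.14 without dM1/2 1, DESeq2 adjusted p = 0.00588). Mmp9, a gelatinase, was at 8.40, 4.77 and 18.4 against 60.6, 57.8 and 65.9 (2.62, 1.41 to 3.82, DESeq2 adjusted p = 0.0282). Itga5, the alpha chain of the fibronectin receptor, was at 1944, 2023 and 1642 against 2706, 2771 and 2914 (0.59, 0.26 to 0.91). Its adjusted p was 0.986 in the P60 fit and 0.0160 in a fit over all 24 libraries.

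Begain, a protein of the postsynaptic density, had the smallest p of the higher genes. It was at 37.8, 19.1 and 25.4 in the controls and at 104, 108 and 127 in dM1/2, with means 4.12-fold apart (2.05, 1.26 to 2.84, DESeq2 adjusted p = 0.00381). Elfn1, a synaptic adhesion protein, was at 29.4, 50.05 and 64.6 against 119, 131 and 221 (1.70), and Prrt4, a proline-rich transmembrane protein, at 25.2, 23.8 and 11.5 against 73.2, 55.3 and 113 (1.96). Efna3, an ephrin ligand, and Dscam, an axon guidance receptor, were near control levels in dM1/2 1 and far above them in the other two. Efna3 was at 16.8, 9.53 and 11.5 against 25.2, 123 and 217, and Dscam at 10.5, 7.15 and 6.92 against 20.2, 95.5 and 89.4 (DESeq2 adjusted p = 0.0121 and 0.0442). The fold changes were 1.38 for Zfpm1, a cofactor of GATA factors, 1.43 for Hunk, a kinase, 1.07 for Ms4a4d, a membrane protein, and 0.85 for Nxn, a redox regulator of Dishevelled, and none of these was called by limma, edgeR or DESeq2 in the 6 libraries. Without dM1/2 1, DESeq2 called Hunk (adjusted p = 0.0243). Tprg had 0, 0 and 2.31 normalized reads in the controls, which is at most 1 read, and 17.7, 12.6 and 84.7 in dM1/2.

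The upstream sequences of 4 of these genes are shown because they are the promoters of Vcan, which was higher in dM1/2 at P60 and lower at P24, and of Sez6l, Mgat5b and Gdf10, which were lower at P60 and higher at P28. Each is the 250 bases before the RefSeq transcript start in GRCm38.p6, 5′ to 3′ on the strand of the gene, with the GC box GGGCGG or its other strand CCGCCC in capitals, a site type bound by Sp1-family factors. Vcan lies at chr13:89742513-89742762 on the minus strand, Sez6l at chr5:112577199-112577448 on the minus strand, Mgat5b at chr11:116918613-116918862 on the plus strand and Gdf10 at chr14:33923337-33923586 on the plus strand.
Vcan: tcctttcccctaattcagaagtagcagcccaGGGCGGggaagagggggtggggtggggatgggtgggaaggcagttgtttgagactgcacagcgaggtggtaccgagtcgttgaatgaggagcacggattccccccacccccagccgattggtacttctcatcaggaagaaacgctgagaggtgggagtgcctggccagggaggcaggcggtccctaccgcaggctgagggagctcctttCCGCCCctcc
Sez6l: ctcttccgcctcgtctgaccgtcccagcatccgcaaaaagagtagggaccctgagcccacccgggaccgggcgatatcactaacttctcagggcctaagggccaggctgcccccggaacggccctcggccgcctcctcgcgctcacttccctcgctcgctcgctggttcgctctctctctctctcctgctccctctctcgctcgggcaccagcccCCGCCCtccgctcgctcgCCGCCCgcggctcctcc
Mgat5b: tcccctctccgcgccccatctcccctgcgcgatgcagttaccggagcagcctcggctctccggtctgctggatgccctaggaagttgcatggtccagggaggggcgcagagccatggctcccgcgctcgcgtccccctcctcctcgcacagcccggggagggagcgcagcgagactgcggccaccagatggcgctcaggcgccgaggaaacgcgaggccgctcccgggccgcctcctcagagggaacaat
Gdf10: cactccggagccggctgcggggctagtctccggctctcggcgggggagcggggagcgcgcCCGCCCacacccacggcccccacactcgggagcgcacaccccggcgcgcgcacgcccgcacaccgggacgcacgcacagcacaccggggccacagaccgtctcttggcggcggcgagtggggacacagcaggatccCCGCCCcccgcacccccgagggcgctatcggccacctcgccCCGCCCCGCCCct
Vcan held 2 GC boxes in this window, Sez6l 2, Gdf10 4 (a pair of them overlapping) and Mgat5b 0, and 32.7% of 32851 RefSeq promoter windows of the same length held at least 1. TATAAA was found in none of the 4, against 12.4% of all windows, and CCAAT in Vcan, against 33.8%, both strands searched. GC content was 62.4% for Vcan, 69.6% for Sez6l, 70.8% for Mgat5b and 78.8% for Gdf10. These are descriptions of the letters and not sites of binding.

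Of 36 DP signature genes, 29 had a negative and 7 a positive fold change, the median was -0.57 against 0.02 over all genes tested, and it was -0.36 without dM1/2 1. At an unadjusted p under 0.05, 11 of 36 were lower, against 1.77% of all genes, and 1, Vcan, was higher, and 7 (19.4%) were below every control, against 4.08% of all genes. None was called by limma. The 12 dermal fibroblast markers were all positive, with a median of 0.31 that was 0.0001 without dM1/2 1, and their part in this result was not tested. Bmp4, a ligand that holds the follicle at rest, was at 3579, 4502 and 4885 in the controls and at 896, 1883 and 2568 in dM1/2 (-1.39, -2.21 to -0.58). Ndp, a Frizzled ligand, was at 249.8, 179 and 212 against 42.9, 65.4 and 125 (-1.57). Lef1, the Wnt-responsive transcription factor of the DP, was at 1309.8, 2021 and 3013 against 192, 774 and 1374 (-1.76, -3.27 to -0.25), with groups that overlapped. These 3 genes share an order among the mutants, lowest in dM1/2 1 and highest in dM1/2 3. Corin, the protease whose gene drives the Cre, was at 249.8, 431 and 609 against 151, 133 and 299 (-1.14, groups overlapping). Of the transcription factors, Foxd1 was at 258, 257 and 265 against 68.2, 168 and 198 (-0.98) and Sox2 at 52.5, 62.0 and 115 against 17.7, 47.8 and 63.5 (-0.91, groups overlapping). In bulk RNA of sorted cells, fewer DP cells among those sorted and less of these transcripts per DP cell cannot be told apart. Lef1, Rspo3, Wif1, Sostdc1, Bmp4, Inhba, Hhip and Fgf10 belong both to this list and to the pathway lists below. Their values are counted in both, and the same limit holds there. Fgf7, a growth factor of the DP that acts on the epithelium, was level, at 1381, 1451 and 1669 against 1921, 1385 and 1308 (0.02, -0.40 to 0.44).

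**Figure D3:**
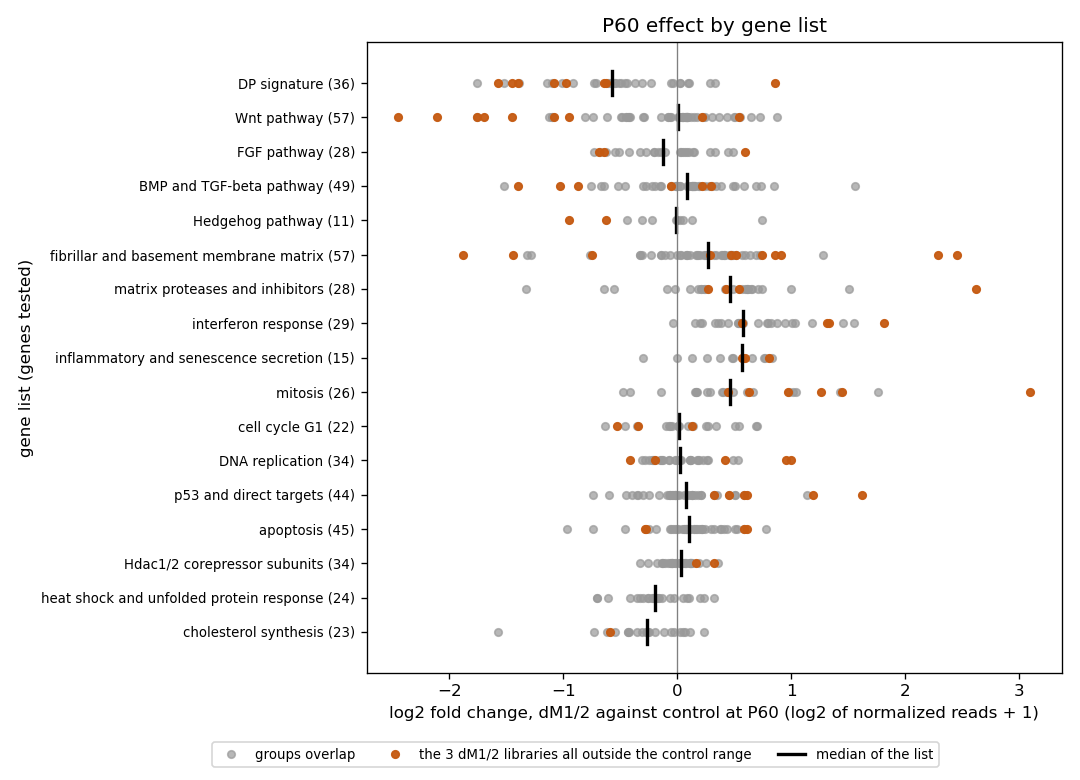
Log2 fold change of every tested gene of 17 gene lists at P60 (1 dot a gene, list size in brackets), with the list median as a black bar; orange dots are genes whose 3 dM1/2 libraries all lie outside the range of the controls. The DP signature is shifted to the left (median -0.57), interferon, protease, mitosis and secretion genes to the right, and the Hdac1/2 subunits lie close to 0 (median 0.03). The place of the mitosis genes is partly set by the filter on low genes. Without dM1/2 1 the medians were 0.22 for interferon, 0.13 for protease, 0.28 for secretion and -0.36 for DP signature genes.

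The Wnt genes were not shifted as a whole, since 29 of 57 were positive and 28 negative (median 0.01). The lowest fold changes of the list were those of Notum, Lgr6, Rspo2, Lef1 and Dkk2. Notum, a secreted lipase that inactivates Wnt ligands, was at 6708, 7998 and 8674 in the controls and at 479.7, 1443 and 4137 in dM1/2 (-2.45, -3.94 to -0.95, and -1.66 without dM1/2 1). All 3 mutant values lay below the controls, and they were spread widely, with dM1/2 1 the lowest. Dkk2, another antagonist, was at 8638, 11376 and 12738 against 1509.7, 3777 and 6507 (-1.69), Sostdc1 at 592, 284 and 203 against 85.8, 146 and 132 (-1.45) and Wif1 at 1324, 1954 and 3408 against 674, 754 and 1763 (-1.10, groups overlapping). Thus 5 of 11 secreted inhibitors were lower at an unadjusted p under 0.05, against 1.77% of all genes, and 0 were higher. Sostdc1 and Wif1 are also DP signature genes, so this count is not separate from that of the signature. The median of the 11 was 0.07. Among the agonists, Rspo3 was at 369, 369 and 623 against 159, 168 and 334 (-1.08), while Rspo1 (-0.45) and Rspo4 (-0.62) overlapped. Lgr5, another R-spondin receptor, was at 338, 309.8 and 311 against 608, 432 and 379 (0.54, 0.06 to 1.01). The ligands and the targets were close to even, with list medians of 0.09 and -0.06. Axin2, a feedback target of the pathway, had a fold change of -0.06 (-0.63 to 0.51) and Ctnnb1, which encodes beta-catenin, one of -0.29 (-0.80 to 0.21).

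Of the BMP and TGF-beta ligands, Bmp7 was at 2789.6, 2936 and 4479.7 in the controls and at 1267, 1519 and 2257 in dM1/2 (-1.03, -1.63 to -0.42). Inhba, the activin A subunit, was at 793, 979.5 and 1861 against 202, 327 and 925 (-1.52, groups overlapping). Of 8 BMP ligands, 5 had a negative and 3 a positive fold change. Below every control lay 3 (Bmp4, Bmp7 and Gdf10, 37.5%, against 4.08% of all genes), and 1 lay above every control (12.5%, against 4.79%). Of 13 antagonists 10 had a positive fold change and 0 had groups apart. Bmper, the antagonist with the highest fold change, 1.56, was at 1618 in dM1/2 1 and at 289 and 231 in the other two, and without dM1/2 1 its fold change was 0.68. Receptors and Smads were near level (median 0.12 over 17). Of 28 FGF pathway genes, 2 were lower (7.14%, against 1.77% of all genes) and 1 higher (3.57%, against 1.97%) at an unadjusted p under 0.05. Fgf10, a ligand that the DP sends to the epithelium, was at 2044, 1583 and 2197 against 1439, 918 and 1405 (-0.65, -1.15 to -0.14). The Hedgehog response genes Gli1 and Hhip, which report signal reaching the DP, were both below every control. They are 2 of 11 genes tested (18.2%, against 4.08% of all genes). Gli1 was at 1026, 1046 and 1118 against 348, 679 and 706 (-0.95) and Hhip at 846, 999 and 915 against 634, 453 and 729.6 (-0.63), while the other 9 tested genes of that list overlapped between groups. In the Notch list the ligand Jag2 was at 44.1, 40.5 and 18.4 against 50.5, 106 and 139 (1.47) and the list median was -0.08. Of 21 growth factor genes, 13 were positive (median 0.24, and 0.02 without dM1/2 1). At an unadjusted p under 0.05, 2 were higher (9.52%, against 1.97% of all genes) and 1 lower (4.76%, against 1.77%). The lower one was Pdgfc, a PDGF ligand, at 693, 505 and 957 against 447, 312 and 299 (-1.0004). Edn3, an endothelin that acts on melanocytes, was at 202, 229 and 205 against 65.6, 67.9 and 224 (-1.07), so dM1/2 3 lay among the controls.

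Of 57 genes of the fibrillar and basement membrane matrix, 43 had a positive fold change (median 0.27, and 0.18 without dM1/2 1), with 21 of 26 collagens and 12 of 13 laminin, nidogen and fibronectin genes positive. At an unadjusted p under 0.05, 4 were higher and 3 lower (7.02% and 5.26%, against 1.97% and 1.77% of all genes). Dermal fibroblast markers, given above, were positive as well, and their part was not tested. The tenascins, glycoproteins of remodelled matrix, were furthest. Tnn was at 651, 875 and 1061 in the controls and at 1207, 6185 and 13320.3 in dM1/2 (2.45, 0.74 to 4.17), and Tnc at 589.8, 925 and 1217 against 1565, 3756 and 13047 (2.28). Both lay above all controls in each mutant library and by the least in dM1/2 1. Without it the fold change of Tnn was 3.42 with a limma adjusted p of 0.0160. Has2, the hyaluronan synthase whose product versican binds, was at 722, 1158 and 627 against 1977, 1159 and 1513 (0.91), and Hapln1, which links hyaluronan to proteoglycans, was at 69.3, 57.2 and 141 against 7.57, 30.2 and 42.4 (-1.88). Lamc3, a laminin chain abundant in these cells, was at 10942, 13789.8 and 16344 against 2742, 4332 and 10364 (-1.44). Of 20 matrix proteases, 18 had a positive fold change with a median of 0.58, although only Mmp9 passed an unadjusted p of 0.05. The median of all 28 proteases and inhibitors was 0.46, and 0.13 without dM1/2 1. Serpine2, an inhibitor of serine proteases, had the lowest fold change of them, at 2529, 4319 and 8724 against 1328, 1546 and 2923 (-1.33, groups overlapping).

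Interferon-stimulated genes were positive for 28 of 29 members, with a median of 0.58, and 6 were higher (20.7%, against 1.97% of all genes) and 0 lower at an unadjusted p under 0.05. Much of this lay in 1 library. Rsad2, an antiviral enzyme, was at 48.3, 33.4 and 29.97 in the controls and at 447, 77.9 and 63.5 in dM1/2 (1.81, and 0.93 without dM1/2 1). Isg15, a ubiquitin-like modifier, was at 134, 172 and 108 against 916, 206 and 205 (1.31, and 0.59), and Ifit1, an RNA sensor, at 453, 593 and 254 against 2621, 671 and 624 (1.33, and 0.66). In all 3 genes the other two mutant libraries were above the controls by less than dM1/2 1 was, and the list median without dM1/2 1 was 0.22. Immune cell markers were also highest in dM1/2 1, as given above. Of 15 genes of inflammatory and senescence secretion, 13 were positive (median 0.56, and 0.28 without dM1/2 1), among them Csf1, the macrophage growth factor, at 7185, 7700.5 and 4376 against 16584, 7849.8 and 9797 (0.80).

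Of the cell-cycle genes, the tested ones of mitosis leaned higher at very low levels and those of G1 did not. Cdk1, the mitotic kinase, was at 4.20, 2.38 and 0 normalized reads in the controls and at 25.2, 20.1 and 18.8 in dM1/2 (3.10, 1.19 to 5.001), which is at most 2 reads against 8 to 10. Top2a, a topoisomerase of dividing cells, was at 31.5, 28.6 and 25.4 against 146, 50.3 and 44.7 (1.26). Of 35 mitosis genes listed, 26 reached the mean of 10 over the 6 libraries and were tested. Cdk1 reached it only through dM1/2, and such a filter favours low genes that are high in 1 group. Of the 26, 23 were positive (median 0.46, and 0.50 without dM1/2 1). At an unadjusted p under 0.05, 4 were higher (15.4%, against 1.97% of all genes) and 0 lower, and 6 lay above every control (23.1%, against 4.79%). These counts are partly set by the filter and are no test of a rise. Ccnd1, the G1 cyclin, was at 594, 734 and 355 against 391, 432 and 932, a fold change of 0.01 (-0.87 to 0.88), and the medians of 22 G1 genes and 34 DNA replication genes were 0.01 and 0.02. Uhrf1, which couples DNA methylation to replication, was the highest of the latter, at 42.0, 19.1 and 43.8 against 50.5, 67.9 and 84.7 (0.99).

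Trp53, which encodes p53, was at 951, 989 and 1033 in the controls and at 759.9, 1106 and 1099 in dM1/2 (-0.02, -0.44 to 0.39). Of 44 genes of the p53 list, 24 were positive and 20 negative (median 0.07). At an unadjusted p under 0.05, 6 were higher (13.6%, against 1.97% of all genes) and 0 lower, and 6 lay above every control (13.6%, against 4.79%). Psrc1, a spindle protein gene, was the highest, at 12.6, 14.3 and 9.22 against 30.3, 52.8 and 35.3 (1.62). Cdkn1a, the p53 target that encodes the CDK inhibitor p21, was at 3289, 6008 and 8973 against 2259, 3691 and 6065 (-0.60, -1.61 to 0.40), with groups that overlapped. Trp63, a p53 family member and keratinocyte marker, was at 124, 145 and 154 against 151, 302 and 659 (1.14). Of 45 apoptosis genes 33 were positive (median 0.11), and Apaf1, the scaffold of the apoptosome, was at 886, 1206 and 765 against 1535, 1463 and 1292 (0.61). The median of 6 CDK inhibitors was 0.05.

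All 13 mitochondrially encoded genes had a negative fold change (median -0.36, and -0.21 without dM1/2 1). Of these, 3 were below every control (23.1%, against 4.08% of all genes) and 2 were lower at an unadjusted p under 0.05 (15.4%, against 1.77%). Negative values were also found for 63 of 80 cytosolic ribosomal protein genes (median -0.05) and 66 of 88 nuclear genes of the respiratory chain (median -0.12), of which 8 were below every control (9.09%). All 10 heat shock genes were negative (median -0.28), and 0 had groups apart. Cholesterol synthesis genes were negative for 18 of 23 (median -0.27). Hypoxia and glycolysis genes (median -0.03), immediate early genes (-0.01), clock genes (-0.09), retinoid genes (0.02), neuronal genes repressed by REST (-0.01) and clustered protocadherins (0.03) centred on 0. Replication-dependent histones had a median of -0.22 over 38 genes and Hox genes one of 0.32 over 26, with 0 of the Hox genes apart. Of 21 imprinted genes, 16 were positive (median 0.38, and 0.09 without dM1/2 1). Of these Peg3, a zinc finger gene expressed from the paternal allele, was at 1929, 2054 and 1273 against 6402, 2796 and 2518 (1.05), and its neighbour Zim1 at 162, 136 and 50.7 against 894, 181 and 214 (1.64).

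The effect at P60 was then set against those of the other ages. Limma called 49 genes higher (0.354%) and 11 lower (0.0795%) in dM1/2 at P20, 2073 (14.8%) and 1662 (11.8%) at P24, and 2820 (20.0%) and 2198 (15.6%) at P28. P24 and P28 libraries held 35469841 to 49331751 reads against 8171944 to 9724000 at P60. The libraries of P60 and P20 also came from female mice, with Xist at 8113 or more and no read of the Y-linked Ddx3y, and those of P24 and P28 from male mice, with Ddx3y at 969 to 1738. Age, sex and depth cannot be told apart in these comparisons. Tested directly over 12 libraries, the effect of the genotype differed between P60 and P24 for 731 of 14291 genes (5.12%), with 365 higher at P60 (2.55%) and 366 lower (2.56%), and between P60 and P28 for 2608 of 14322 (18.2%), with 1147 higher at P60 (8.01%) and 1461 lower (10.2%). Between P60 and P20 it differed for 0 of 14037 genes (0%) by limma, with 1756 at an unadjusted p under 0.05, and for 1 by edgeR and 151 by DESeq2.

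Of 1664 genes called higher at both P24 and P28, 1484 were tested at P60, where 850 were positive and the median was 0.06, against 1.03 at P24 and 1.30 at P28, which chose them. There 1171 lay within 0.5 of no change, 72 were above 1 and 23 below -1. At an unadjusted p under 0.05, 75 were higher (5.05%, against 1.97% of all genes) and 28 lower (1.89%, against 1.77%). Of 1100 genes called lower at both, 1073 were tested at P60, 536 were negative and 948 lay within 0.5 of no change, with medians of -0.91 and -1.11 at P24 and P28. Of these 33 were below -1 and 5 above 1. At an unadjusted p under 0.05, 42 were lower (3.91%, against 1.77% of all genes) and 11 higher (1.03%, against 1.97%). For 1009 of 1648 of the former genes the effect at P60 was lower than at P28 by the test of the difference, against 10.2% of all genes. For 623 of 1096 of the latter it was higher, against 8.01% of all genes. The same P28 libraries chose these genes, so the direction of both counts is largely set by that choice and is no separate support. Ccnd1 was among the former genes, with effects of 3.32 at P24, 3.72 at P28 and 0.01 at P60. Fgf7 was among the latter, with -1.82, -2.18 and 0.02. The mitosis list had 35 of 35 genes called higher at P28 (20.0% of all genes) and 0 of 26 at P60 (0%). For 24 of its 35 genes the effect was lower at P60 than at P28 by the test, against 10.2% of all genes. The P28 values behind those calls enter that difference. For the p53 list that number was 13 of 44, against the same 10.2%. Among p53 genes, Cdkn1a went from 2.45 at P28 to -0.60 at P60.

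**Figure D4:**
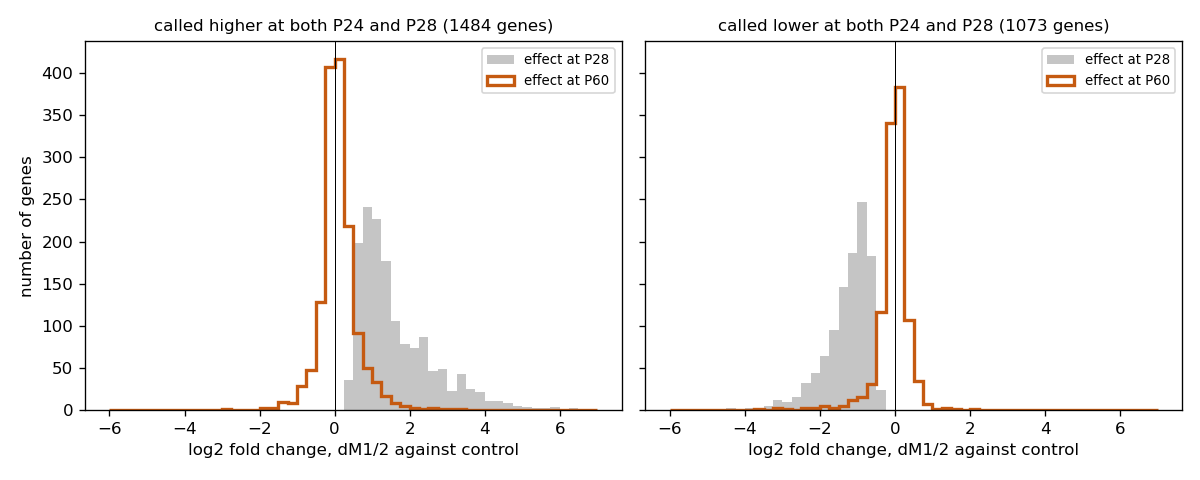
Number of genes by log2 fold change at P28 (grey) and at P60 (orange outline), for genes called higher (left) or lower (right) in dM1/2 at both P24 and P28 and tested at P60. The P28 values chose the genes and lie to 1 side; the P60 values of the same genes centre on 0, with a median of 0.06 on the left and 537 positive and 536 negative values on the right.

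A set of the P60 genes went along with anagen. Fut9 had effects of -1.63 at P24, -3.71 at P28 and -3.61 at P60, and Rspo2 was negative throughout as well (-1.54, -2.67 and -1.76), with the test calling the effects of P24 and P28. In the controls, mean Rspo2 was 8134 at P24, 7019 at P28 and 239 at P60. Cacng5 (-2.87, -2.50 and -2.21), Nfam1 (-1.43, -2.71 and -2.47), Lrrtm1 (-2.51, -2.36 and -3.19) and Dio2 (-1.03, -2.37 and -1.40) had the same sign at all 3 ages and were called lower at P24 and P28. Begain was higher at all 3 (1.33, 2.92 and 2.05, called at P24 and P28), as were Efna3 (3.91, 5.18 and 2.75), Zfpm1 (2.13, 1.80 and 1.38) and Prrt4 (2.17, 3.25 and 1.96). For these 10 genes the P60 effect did not pass the test of a difference from either anagen age, which does not show that the effects are equal. At P20 none of the 10 was called, where limma called 0.354% of all genes higher and 0.0795% lower. Fut9 (0.96), Dio2 (0.93), Rspo2 (0.44) and Lrrtm1 (0.42), lower in anagen and at P60, were positive at P20, and Zfpm1 (-0.24) was negative. Cacng5 (-1.11), Nfam1 (-0.23), Begain (0.48), Prrt4 (1.17) and Efna3 (1.84) had the same sign at P20 as at P60.

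Another set had the opposite sign at P28, and all of it but Mgat5b and Lgr6 also at P24. In each the effect at P60 differed by the test from that at P24, P28 or both. Sez6l was higher in dM1/2 at P24 (1.64) and P28 (3.79) and lower at P60 (-2.98). Gdf10 had effects of 1.64, 0.59 and -0.87, and Grb14 of 1.06, 0.73 and -1.91, with all 4 anagen effects of this pair called by limma. Dio3 had effects of 5.82, 3.80 and -1.95. Lgr6 was level at P24 (-0.18), higher at P28 (3.31) and lower at P60 (-2.11), and Mgat5b had effects of -0.53, 1.89 and -4.34. Vcan ran in the other direction, with effects of -1.20, -0.90 and 0.85, of which that at P28 was not called (limma adjusted p = 0.180). The test called the difference from P28 alone for Lgr6 and from both anagen ages for the other 6 genes. For Mgat5b, however, the difference from P24 was called in only 8 of 17 alternatives to the main setting. Limma's adjusted p at P60 alone passed for none of these 7 genes. Their P60 intervals excluded 0, but the genes were named for their P60 values, so this is partly set by the choice and is no support. St3gal5 was level at every other age (-0.02 at P20, -0.19 at P24 and 0.01 at P28) and at -1.02 at P60, and its P60 effect differed from that of P28 but not by the test from those of P24 and P20. Hunk was higher at P60 (1.43) and negative at P24 (-0.76) and P28 (-0.60).

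**Figure D5:**
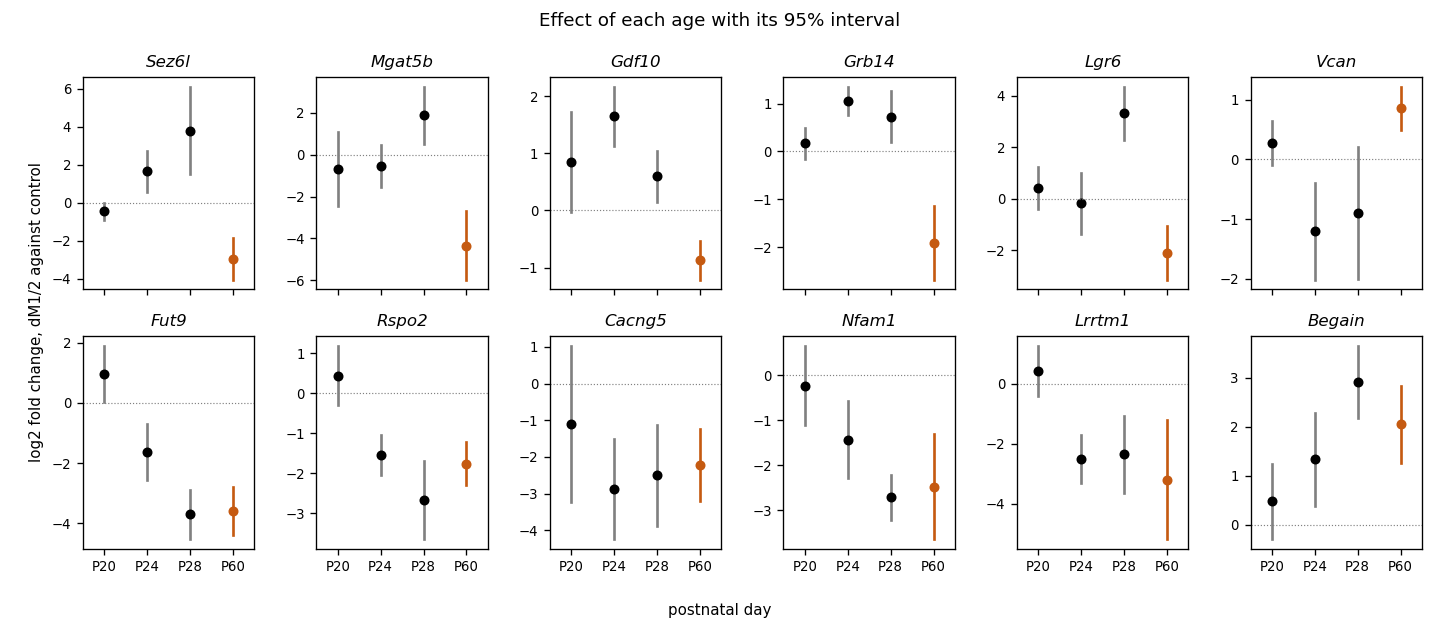
Log2 fold change, dM1/2 against control, with its 95% interval at each of the 4 ages (P60 in orange) for 12 genes, each panel on its own scale. In the upper row Sez6l, Mgat5b, Gdf10, Grb14 and Lgr6 are below 0 at P60 and above it at P28, and Vcan the reverse; in the lower row Fut9, Rspo2, Cacng5, Nfam1 and Lrrtm1 are below 0 and Begain above 0 at both anagen ages and P60.

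The genes that limma called at P20 were also read at P60. Of the 49 called higher, 31 were positive at P60, with a median of 0.17, and 8 were higher (16.3%, against 1.97% of all genes) and 2 lower (4.08%, against 1.77%) at an unadjusted p under 0.05. Tnn was among the genes higher at both telogens, with an effect of 1.41 at P20 (limma adjusted p = 0.0260) and of 2.45 at P60. Of the 11 called lower at P20, 8 had a positive fold change at P60. For the DP signature the median effect was 0.51 in the P20 libraries, against -0.57 in those of P60, and in anagen it was -0.45 (P24) and -0.89 (P28).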

How the data were processed

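RNA of sorted YFP-positive DP cells was depleted of ribosomal RNA and sequenced by the study. Per the labels and the study's methods, the authors used Trimmomatic, then TopHat2 (version 2) against mm10 and HTSeq on GRCm38.p4, and divided the counts by DESeq2 size factors. The deposited values are this normalized signal. Beside it the authors deposited their DESeq2 log2 fold changes, p-values and, as scores, standard errors and Wald statistics, which were not used. Whole reads were recovered for 100% of values (tolerance 0.01). The test planned for raw counts was therefore replaced by limma 3.58.1 (trend) on log2(normalized reads + 1), for genes with a mean of at least 10, with Benjamini-Hochberg adjustment at 0.05 over all genes tested. The edgeR 4.0.16 quasi-likelihood test and DESeq2 1.42.0 (R 4.3.3) were run on the recovered reads as alternatives. Differences between ages were tested as interactions over 12 libraries. The rule named the 12 higher and 12 lower genes of smallest p without overlap between groups, genes called by a count test, and extremes of the lists; other genes were chosen after their values were seen. The gene lists and the choice of these libraries were made with earlier results of these data known. A floor of 3 reads was 6.30 to 7.57 normalized reads, and intervals are at 95%. Antisense and near-identical genes were not separated further.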

Additional observations from a re-analysis of the deposited data

Results flagged for a closer look

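For each result below the effect of the genotype at P60 differed from that at another age by an interaction test (limma over 12 libraries, Benjamini-Hochberg adjusted over all genes tested). Age, sex and depth of the libraries cannot be told apart in these differences, and no cause was tested. Values are the P60 effect minus the other effect, on the log2 scale. Each difference was also computed under 17 alternatives to the main setting, and none changed sign in them.

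Against P24, the effect at P60 was lower for Dio3 (-7.78), Sez6l (-4.62), Mgat5b (-3.80), Ccnd1 (-3.31), Grb14 (-2.97) and Gdf10 (-2.52). It was higher for Hunk (2.19), Vcan (2.06), Fgf7 (1.84), Hdac1 (1.76), Gprin3 (1.72) and Kat2b (1.14). The calls of Kat2b (past the threshold in 6 of 17 alternatives), Gprin3 (7) and Mgat5b (8) were lost in most alternatives. Those of Ccnd1 and Hunk held in 11 and 12 and the other 7 in all 17.

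Against P28, the effect at P60 was lower for Sez6l (-6.77), Mgat5b (-6.23), Dio3 (-5.76), Lgr6 (-5.42), Grb14 (-2.64), Gprin3 (-1.58), Gdf10 (-1.47), St3gal5 (-1.03) and Nxn (-0.82) among the genes of smallest p at P60 and those named beside them. It was also lower for the matrix gene Hapln1 (-4.10), the cell-cycle and p53 genes Ccnd1 (-3.71), Psrc1 (-3.17), Cdkn1a (-3.05), Uhrf1 (-2.57) and Trp53 (-0.84), the signalling genes Pdgfc (-1.51) and Gli1 (-1.20), and Hdac6 (-1.29). It was higher for Elfn1 (2.37), Fgf7 (2.20), Corin (2.19), Hunk (2.03), Vcan (1.75), Fbn2 (1.66) and Kat2b (1.63). The call of Gli1 held in 6 of 17 alternatives and was lost with edgeR and without P60 dM1/2 1. Those of Nxn, Pdgfc, Elfn1 and St3gal5 held in 9, 10, 11 and 12, and the others in at least 14.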

How the results depend on the processing

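The count of genes called at P60, 0 by limma, was 1 with log2(normalized reads + 10), 1 with array weights, 19 in a fit over all 24 libraries and 25 with DESeq2. Leaving out single libraries gave 0 to 2 (2, Fut9 and Tnn, without dM1/2 1, and 1, Fut9, without dM1/2 3), and DESeq2 without dM1/2 1, chosen after seeing the data, gave 62. With the replicate number as a block the P60 count was 6. Same-numbered control and dM1/2 libraries correlated in their deviations from the group means at 0.344, 0.0238 and 0.1715, not every library correlated best with its own number, and the labels give no pairing. For the difference from P20, 0 genes became 1 with log2(normalized reads + 10), 2 without the filter, 1 with edgeR, 151 with DESeq2, 53 with the replicate block and 0 to 21 without single libraries (21 without P60 dM1/2 3, 4 without P60 dM1/2 1). For that from P24, 731 became 1725 with DESeq2, 480 with the replicate block and 82 to 972 without single libraries, with 82 without P24 dM1/2 3, 156 to 175 without P24 control 2 or 1, 271 to 348 without P24 dM1/2 2 or 1, and 256 to 310 without P60 control 3, 1 or 2. For that from P28, 2608 became 1393 to 2941 without single libraries, with 1393 without P28 dM1/2 2 and 1636 to 1721 without P60 control 3, P28 control 1 or P28 dM1/2 3. Of the genes named in the text, 11 changed sign under at least 1 alternative, all without a call at P60. Rspo4, at -0.62, did so without dM1/2 1. With array weights the fold change was 0.14 for Axin2, 0.10 for Hdac4, 0.026 for Hdac11, 0.092 for Trp53 and -0.091 for Fgf7, and with TMM -0.018 for Ccnd1 and -0.0077 for Fgf7. Without single libraries the ranges were -0.26 to 0.22 for Axin2, -0.38 to 0.24 for Ccnd1, -0.15 to 0.13 for Fgf7, -0.018 to 0.16 for Hdac2, -0.24 to 0.20 for Hdac4, -0.024 to 0.33 for Hdac7, -0.29 to 0.14 for Hdac8, -0.35 to 0.064 for Hdac10, -0.23 to 0.081 for Hdac11, -1.20 to 0.023 for Rspo4 and -0.12 to 0.15 for Trp53. The causes were not tested.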
